A study of Mus musculus with 12 samples.

Results

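Genes whose expression after combined loss of the transcription factors Ets1 and Ets2 departed from the sum of the single losses were sought in cultured mouse aortic endothelial cells. The departure of a gene was taken as the Ets2 difference in cells without Ets1 minus the Ets2 difference in cells with Ets1, which equals the combined-loss difference from wild type minus the sum of both single-loss differences. It was computed from 11 of the 12 arrays of the study, chosen by their titles. The array left out, the third labelled as lacking both factors, equals the average of the other two in 20521 of 20523 probe sets, to a tolerance of 1e-05.

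All cells came from aortas of 4-week-old mice. Wild-type cells (WT, Ets1+/+; Ets2+/+, 3 arrays) and Ets1 null cells (Ets1KO, Ets1-/-; Ets2fl/fl, 3 arrays) received a lentivirus carrying egfp. Ets2 null cells (Ets2KO, Ets1+/+; Ets2fl/fl, 3 arrays) and cells null for both (labelled DKO, Ets1-/-; Ets2fl/fl, 2 arrays) received a lentivirus carrying egfp and Cre. Cre therefore accompanies Ets2 loss in both backgrounds, and Ets2 is floxed in every group but WT, so the effects of Cre and of the floxed allele cannot be told apart from those of the factors. Apart from the word biological in the titles, no label ties the replicates to separate animals, so p-values may measure technical spread only.

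Ets1 and Ets2 are close relatives in the ETS family, which binds DNA at a GGAA core and is known for its part in endothelial gene control and vessel growth. Related factors can read the same sites, so the loss of 1 may be covered by the other, and a combined loss may then exceed the sum of single losses. The sum is the reference used here. On a log2 scale, adding differences means multiplying changes in expression, and a departure of 0 means that the change seen after the first loss is multiplied by the change seen after the second.

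The labels were checked first. Ets1, relative to each array's median, read 1.21, 0.72 and 0.95 in WT, -0.82, -0.39 and 0.02 in Ets1KO, 0.43, 0.50 and 0.80 in Ets2KO, and 1.72 and 1.99 in the arrays labelled DKO. At this brightest probe set the last are the highest of all 11, in a group whose label says that Ets1 is absent. At the next brightest labelled DKO was also highest (1.51 and 1.52, against 0.55 to 1.03 in WT). At another it read -0.90 and -0.31, above Ets1KO (-2.18 to -1.21) and overlapping WT (-0.90 to -0.64). At the fourth it read -1.81 and -1.24, below WT (-0.35 to -0.29) and overlapping Ets1KO (-1.41 to -0.58). At 3 of 4 probe sets the level thus goes against the label. The departure of Ets1 was 2.64 (SE 0.34, limma adjusted p = 0.00233), and its 4 probe sets gave -0.14, 1.55, 2.29 and 2.64. Ets2 read 0.68, 0.89 and 1.59 in WT, 1.15, 1.23 and 1.39 in Ets1KO, 0.55, 0.29 and 1.06 in Ets2KO, and 2.72 and 1.34 in labelled DKO, with a departure of 1.19 (SE 0.55, adjusted p = 0.168). The position of these probe sets along the targeted alleles was not analysed here. Every direction below is therefore that of the arrays labelled DKO.

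Values are log2 RMA expression with the median of each array subtracted, and the number of arrays limits their precision. Medians before subtraction were 8.29 and 8.30 in labelled DKO and 9.05 to 9.15 in the 9 other arrays. Of 12 endothelial markers, 3 were tested, with mean levels at the 10.5th (the VEGF receptor Kdr), 44th (Eng) and 47.4th (Cd34) percentile of all genes, and the others were not analysed here. By the X-linked Xist and the Y-linked Eif2s3y and Kdm5d, WT replicate 1 and the Ets2KO arrays are male-like and the other arrays female-like.

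Departures were widespread. Among 11015 genes, each taken at its brightest probe set, 1084 lay above the sum (9.84%) and 711 below it (6.45%), together 16.3%, at a limma p-value adjusted by Benjamini and Hochberg below 0.05. Calls above the sum thus made up 60.4%. That share was 4.77% as deposited (166 above, 3313 below) and 47.0% after quantile normalization (685 above, 773 below), so the balance of directions depended on the scaling. The median departure of all genes was 0.25 here, -0.57 as deposited and 0.13 after quantile normalization, and single departures are best read against that shift. The median size of a departure was 0.55 and its median SE 0.33. Departures beyond 1 were called in 668 genes above and 562 below, and beyond 2 in 166 and 153.

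Called genes were next placed by where labelled DKO and the sum lay relative to WT. In 839 of the 1084 genes above the sum they lay on opposite sides of WT, as they did in 41.7% of all genes. A gene chosen for a departure above the sum tends by construction to have a negative sum, so these counts are a description. In 212 the combined difference went further in the direction of the sum, and in 33 it fell short of a negative sum. Of the 711 genes below, 543 went the opposite way, 153 went further and 15 fell short. In 560 called genes, 246 above and 314 below, each single loss stayed within 0.5 of WT while labelled DKO lay beyond 1. That condition is built from the differences that make up the departure, and its share of all genes was not counted. This count too is only a description. Both labelled DKO arrays lay above all 9 others in 905 of the genes called above (22.7% of all genes) and below them in 632 of those called below (11.9% of all genes). Unlogging the group means changed the sign of no call.

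The single losses alone gave few calls. Ets1KO differed from WT in 1 gene (0.00908%) and Ets2KO in 37 (0.336%), while labelled DKO differed from WT in 3341 (30.3%) and from Ets1KO in 3470 (31.5%). Of the called departures, 1314 were also called between labelled DKO and WT in the same direction and 24 between Ets2KO and WT. All these comparisons and the departure share arrays, so a gene low in the single losses has a higher departure by construction.

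**Figure D1:**
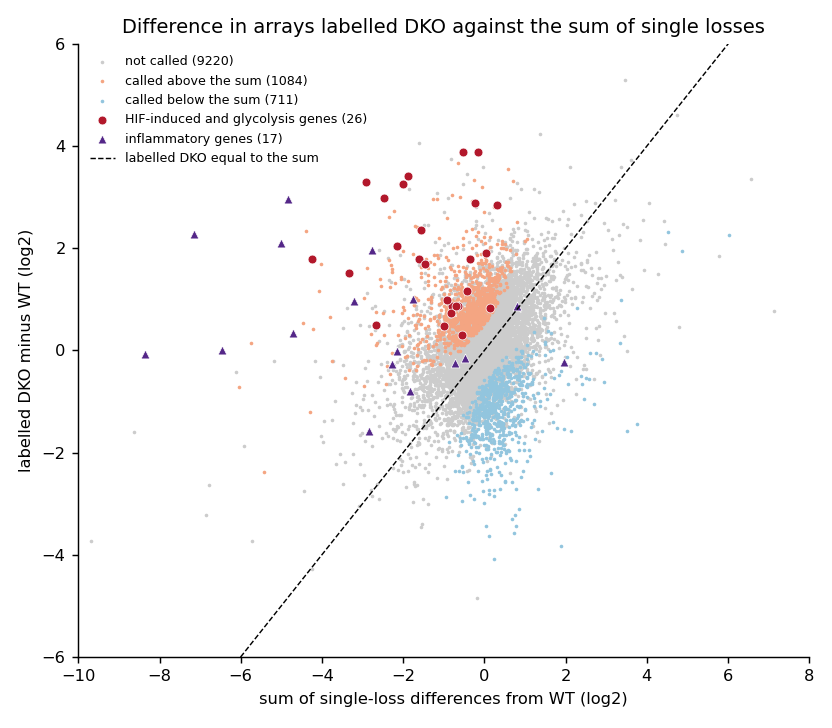
Each point is 1 gene, with the sum of both single-loss differences from WT (x axis, log2) against the difference of labelled DKO from WT (y axis, log2); vertical distance from the dashed line is the departure. Hypoxia-induced and glycolysis genes (red circles, 26) lie above the line and above WT, most of them left of 0, and inflammatory genes (purple triangles, 17) extend further left.

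Genes of the hypoxia response and glycolysis had the highest median departure of the 19 lists examined. The factor HIF, which is hydroxylated and destroyed when oxygen is present, induces these genes when oxygen is short, and many encode enzymes that make ATP from glucose without oxygen. Of 26 measured members (30 listed), 24 were called above (9.84% of all genes were) and 0 below, with a median departure of 3.13 against 0.25 for all genes. At an unadjusted limma p below 0.05, 25 lay above and 0 below. The list was drawn up with the behaviour of these genes in the single comparisons already known. In each of the 26, labelled DKO lay above WT, and in 17 (65.4%) both single losses lay below WT as well, a joint pattern found in 15.3% of all genes. Mean levels of the list ranged from 3.74 to 3.90 in labelled DKO, 1.28 to 2.07 in Ets1KO, 0.67 to 1.20 in Ets2KO and 1.73 to 2.11 in WT, so labelled DKO was separate from every other group. Ets2KO was separate below the rest.

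Promoters of 4 called members, picked by hand as examples, are shown because these genes moved together and HIF reads the core ACGTG. Each is the 250 bases before the gene's start, from RefSeq on GRCm38.p6, 5′ to 3′ on the gene's strand, with ACGTG and its reverse complement CACGT in capitals. They are Egln3 (chr12:54203875-54204124, minus strand), P4ha2 (chr11:54100674-54100923, plus strand), Hk2 (chr6:82774455-82774704, minus strand) and Ldha (chr7:46845554-46845803, plus strand).
Egln3: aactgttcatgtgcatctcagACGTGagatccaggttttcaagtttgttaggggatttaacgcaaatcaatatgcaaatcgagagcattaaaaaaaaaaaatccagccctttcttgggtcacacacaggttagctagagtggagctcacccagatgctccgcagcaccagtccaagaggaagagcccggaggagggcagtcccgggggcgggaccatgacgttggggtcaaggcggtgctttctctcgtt
P4ha2: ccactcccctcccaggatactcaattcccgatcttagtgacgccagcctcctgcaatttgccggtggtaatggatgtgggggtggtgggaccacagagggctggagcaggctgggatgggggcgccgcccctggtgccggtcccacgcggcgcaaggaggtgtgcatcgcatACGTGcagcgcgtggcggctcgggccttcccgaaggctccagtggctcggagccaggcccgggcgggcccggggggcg
Hk2: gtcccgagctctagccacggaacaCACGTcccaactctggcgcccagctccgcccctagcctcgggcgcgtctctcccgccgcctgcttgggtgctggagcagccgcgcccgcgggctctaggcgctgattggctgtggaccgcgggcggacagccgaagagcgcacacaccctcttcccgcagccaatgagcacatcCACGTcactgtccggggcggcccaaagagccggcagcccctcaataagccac
Ldha: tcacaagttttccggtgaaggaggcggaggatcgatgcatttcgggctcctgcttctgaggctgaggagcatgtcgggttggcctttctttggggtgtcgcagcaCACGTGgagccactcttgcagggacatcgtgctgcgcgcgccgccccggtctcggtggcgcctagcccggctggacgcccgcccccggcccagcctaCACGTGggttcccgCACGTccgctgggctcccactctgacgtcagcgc
The core occurs 1 time in Egln3 and in P4ha2, 2 times in Hk2 and 5 times in Ldha, where overlapping matches on both strands form CACGTG, the E-box that other factors also read. Of 25 members with a promoter in the table, 13 (52.0%) hold ACGTG on either strand. It is held by 22.2% of the 8921 tested genes with a promoter, 24.6% of those called above and 19.8% of those called below. Higd1a, Adm, Pdk1 and Vegfa, which were also called above, hold none in this window. The list was drawn up from HIF-induced and glycolysis genes, so its share is a description. The ETS-type sequence CCGGAA, on either strand, occurs in 16% of the list, 23.1% of all, 21.9% of genes above and 26.4% of genes below. A match describes the letters in this window and is no evidence of binding.

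The oxygen sensors and collagen hydroxylases of this group departed far. Egln3, an oxygen-dependent hydroxylase that marks HIF for destruction and is itself induced by HIF, read -0.02, 0.81 and 0.72 in WT, -0.43, 1.15 and 0.08 in Ets1KO, -2.57, -1.74 and -2.21 in Ets2KO, and 3.89 and 3.72 in labelled DKO. It was thus lowest in Ets2KO and highest in labelled DKO, with no overlap between those groups and the rest. Its departure was 6.22 (SE 0.60, adjusted p = 0.000794), and the second probe set gave 6.05. P4ha2, a subunit of collagen prolyl hydroxylase, had means of 1.03 in WT, 0.88 in Ets1KO, -0.70 in Ets2KO and 4.44 in labelled DKO and departed by 5.29 (SE 0.33, adjusted p = 0.000329). The relatives Egln1 (2.54, adjusted p = 0.00519) and P4ha1 (2.15, adjusted p = 0.00605) also lay above the sum, though the second P4ha1 probe set gave -1.77. Car9, a carbonic anhydrase that buffers acid, had lower means in both single losses (-2.83 in Ets1KO and -2.36 in Ets2KO against -0.47 in WT) and 1.32 in labelled DKO. Its departure was 6.04 (SE 1.05, adjusted p = 0.00746).

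Glycolytic enzymes lay above the sum along most of the pathway. Hk2, the inducible hexokinase that traps glucose in the cell, read -0.29, 0.55 and 0.71 in WT, -0.21, 0.78 and 0.73 in Ets1KO, -2.67, -2.64 and -1.48 in Ets2KO, and 3.05 and 3.57 in labelled DKO. The level was thus lower in Ets2KO than in WT and higher in labelled DKO than in Ets1KO. Its departure was 5.46 (SE 0.62, adjusted p = 0.00153). The glucose transporter Slc2a1 departed by 3.42 and all 3 of its probe sets were called, as were all 5 of Aldoa (1.52), all 3 of Tpi1 (1.57) and all 3 of Pgk1 (1.91). Aldoc, an aldolase low in WT, Ets1KO and Ets2KO (-2.47, -2.67 and -2.42), reached 1.41 in labelled DKO and departed by 4.03 (adjusted p = 0.00627). The abundant lactate dehydrogenase Ldha (1.48) and Pgam1 (1.55) departed less, and pyruvate kinase Pkm (0.86, adjusted p = 0.0522) was not called.

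Mitochondrial and growth-related hypoxia genes followed. Pdk1, which keeps pyruvate out of mitochondria, departed by 3.18 (SE 0.46, adjusted p = 0.00365), and its 3 called probe sets gave 3.18 to 4.69. Bnip3, a mitophagy receptor, departed by 3.91 and Higd1a, a respiratory chain assembly factor, by 4.19 (SE 0.42, adjusted p = 0.000833). The 3 Higd1a probe sets gave 3.42, 3.88 and 4.19, and in each the labelled DKO arrays lay above the 9 others. The angiogenic growth factor Vegfa departed by 3.15 (adjusted p = 0.0143), with 1.22 at its second probe set. The vasodilator peptide Adm departed by 4.86 (adjusted p = 0.0341) and the stress-responsive Ndrg1 by 5.26 (SE 1.25, adjusted p = 0.0239), and Ndrg1 was no longer called without either labelled DKO array. Ddit4, an inhibitor of mTORC1, gave 0.70 (adjusted p = 0.367). Of the 15 members with several probe sets, 12 had departures of 1 sign at every probe set and 10 had at least 2 called above and none below. The exceptions, Hk1, P4ha1 and Pfkp, had probe sets called both ways and were counted as above by their brightest probe sets alone. As deposited 19 members were called, after quantile normalization 23, without any 1 array 22 to 24, and 16 with the inferred sex as a covariate. With probe sets averaged, 19 were called above and the median departure was 2.35.

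Inflammatory genes, those that NF-kappa-B induces in activated endothelium, came next. Of 17 measured members (23 listed), 9 were called above the sum (9.84% of all genes were) and 0 below (6.45%), with a median of 2.77 and 16 departures above 0 (10 above and 1 below at unadjusted limma p below 0.05). Here the single losses both lay well below WT (median differences of -1.42 in Ets1KO and -1.41 in Ets2KO), while labelled DKO was near or above WT. Mean levels of the list were 1.54 to 1.68 in labelled DKO, -0.57 to -0.13 in Ets1KO and -0.76 to -0.06 in Ets2KO, but -0.62 to 2.17 in WT, where replicate 3 was low. The departure of these genes therefore rests on a WT group with a wide spread.

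The prostaglandin synthase Ptgs2 had the largest departure among genes with agreeing probe sets. It read 0.94, 1.38 and -1.59 in WT, -0.73, -0.97 and -0.34 in Ets1KO, -3.19, -2.97 and -4.83 in Ets2KO, and 3.28 and 3.12 in labelled DKO, which was above every other array. The departure was 7.79 (SE 1.11, adjusted p = 0.00358) and 5.33 at the second probe set. Nfkbiz, a nuclear I-kappa-B family protein that tunes NF-kappa-B targets, read 2.60, 2.94 and 1.88 in WT, 0.87, 0.73 and 0.16 in Ets1KO, -0.89, 0.06 and -0.27 in Ets2KO, and 2.53 and 3.10 in labelled DKO. Each single loss was below WT and labelled DKO was back within or just above its range. It departed by 5.06 (SE 0.52, adjusted p = 0.000853), with 4.54 and 1.34 at its other probe sets. The inhibitors of the same pathway went the same way, Nfkbia by 2.77 at its brightest and 2.54 to 3.02 over 5 called probe sets, and Tnfaip3 by 4.73, with 0.45 at its second probe set.

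Departures of several secreted inflammatory proteins had large errors. The iron-binding protein Lcn2 read 4.07, 2.47 and -1.13 in WT, -3.19, -3.65 and 0.09 in Ets1KO, -3.30, 0.93 and -1.51 in Ets2KO, and 3.33 and 4.84 in labelled DKO, so WT replicate 3 overlapped the single losses. Its departure of 9.43 (SE 2.32, adjusted p = 0.0271) was the largest of all genes. The monocyte chemokine Ccl2 departed by 8.28 (SE 2.08, adjusted p = 0.0291) and the cytokine Lif by 7.10 (SE 1.81, adjusted p = 0.0306), both at a single probe set. These calls held in only 4 (Lcn2), 5 (Ccl2) and 3 (Lif) of the 11 fits that leave out 1 array. The T-cell chemokine Ccl5 departed by 4.19 (SE 0.60, adjusted p = 0.00350). The adhesion molecule Vcam1 (0.07, adjusted p = 0.984) and the membrane chemokine Cx3cl1 (-2.19, adjusted p = 0.114) were not called. The count for the list was 5 without WT replicate 2, Ets1KO replicate 1, Ets1KO replicate 2, Ets2KO replicate 1 or labelled DKO replicate 1, and 10 without WT replicate 3.

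Immediate-early genes, which switch on within minutes of a stimulus, gave 7 members above the sum (9.84% of all genes were) of 23 measured (24 listed) and 0 below (6.45%), with a median of 1.39 (12 above and 1 below at unadjusted limma p below 0.05). Maff, a small Maf factor, read 0.63, 0.50 and 0.51 in WT, 0.33, 0.02 and 0.05 in Ets1KO, -1.57, -1.29 and -1.09 in Ets2KO, and 1.70 and 2.57 in labelled DKO. The groups were separate, with Ets2KO lowest and labelled DKO highest, and the departure was 3.86 (SE 0.33, adjusted p = 0.000689). The MAP kinase phosphatase Dusp1 departed by 4.99 (SE 1.0, adjusted p = 0.0132) and the survival gene Ier3 by 4.65 (SE 1.03, adjusted p = 0.0186), the latter not called without labelled DKO replicate 2. Atf3 (2.87), Fosl2 (2.67), Nr4a2 (2.13) and Jund (1.45) were also called. Jun (-0.75, adjusted p = 0.223), Junb (0.02), Myc (1.02, adjusted p = 0.187) and Egr1 (2.05, adjusted p = 0.300) were not. Without labelled DKO replicate 1, 4 members were called.

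**Figure D2:**
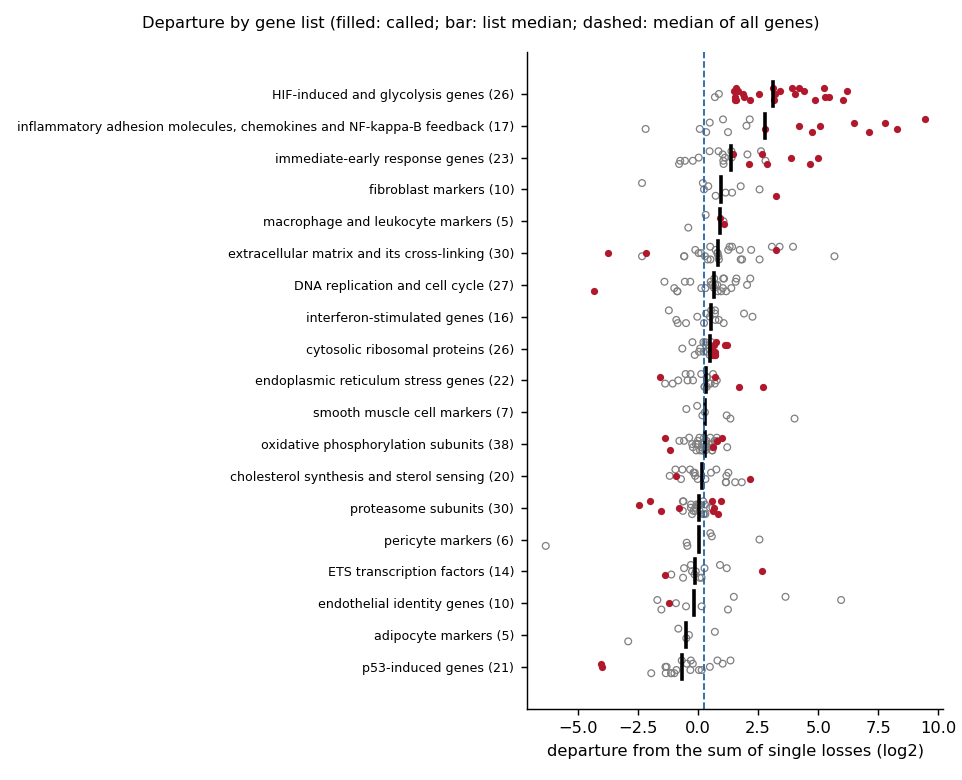
Departure from the sum (x axis, log2) of each measured member of 19 gene lists, with filled points called, black bars at list medians and the dashed line at the median of all genes (0.25). The hypoxia and glycolysis list lies wholly above that line, and inflammatory genes reach the highest values.

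Other genes above the sum with agreeing probe sets were of varied function. Tnfrsf9, a costimulatory TNF receptor, read 0.62, 0.18 and 1.02 in WT, -0.71, -0.05 and 0.04 in Ets1KO, -0.78, -1.10 and -0.83 in Ets2KO, and 3.39 and 3.05 in labelled DKO. Its departure was 4.97 (SE 0.39, adjusted p = 0.000507), with 4.74 at the second probe set, which is less bright. Fgf7, a growth factor for epithelium, departed by 5.22 (adjusted p = 0.00474) and 3.87 at its second probe set. The transcription factor Cebpd departed by 4.46 (adjusted p = 0.0123) and by 1.21 at its second probe set. Ak4, a mitochondrial adenylate kinase, departed by 4.10 (adjusted p = 0.00745), and of its other probe sets 1 gave 3.84 and the dimmest 0.32. The transferrin receptor Tfrc, which imports iron, departed by 3.98 (adjusted p = 0.00266) and 1.24. In each of these genes Ets2KO had the lowest group mean at the brightest probe set.

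**Figure D3:**
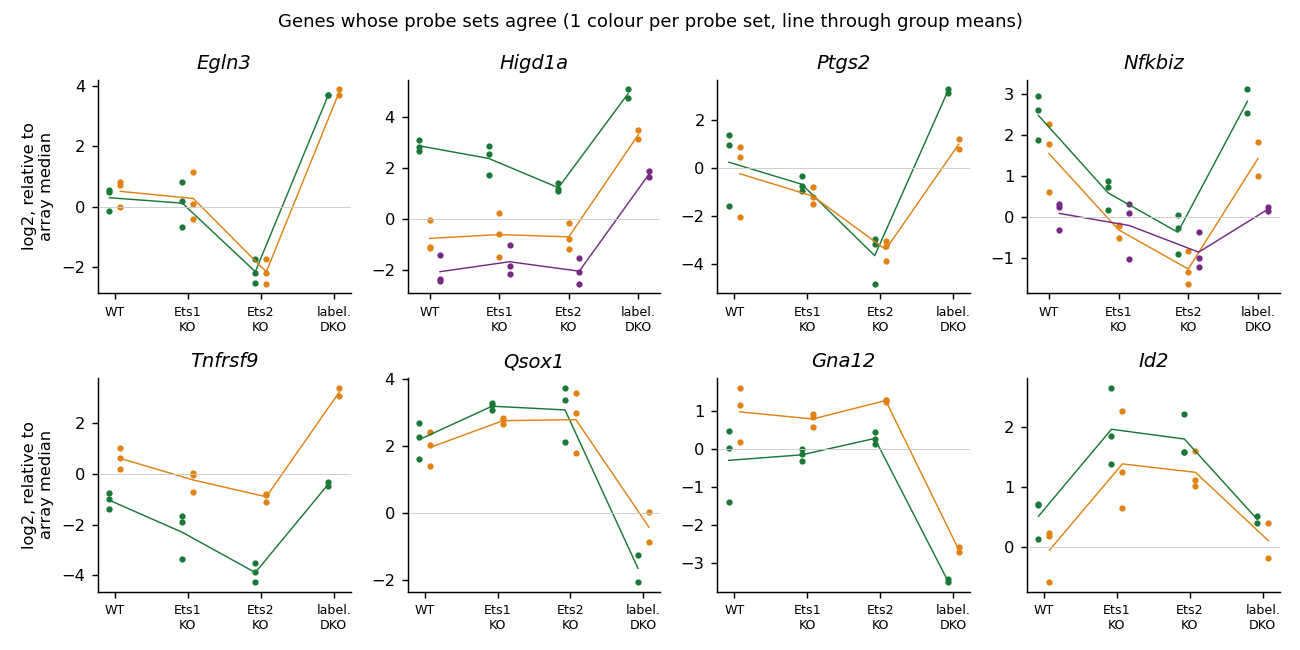
Log2 level relative to the array median (y axis) in each array of WT, Ets1KO, Ets2KO and labelled DKO (x axis, label. DKO), 1 colour for each probe set and lines through group means, for 8 genes whose probe sets depart in the same direction. Egln3, Higd1a, Ptgs2, Nfkbiz and Tnfrsf9 lie above the sum and Qsox1, Gna12 and Id2 below it.

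The largest departures below the sum with agreeing probe sets were in genes of varied function. Qsox1, an enzyme that forms disulfide bonds in secreted proteins, read 2.26, 2.68 and 1.62 in WT, 3.06, 3.21 and 3.29 in Ets1KO, 3.73, 3.38 and 2.10 in Ets2KO, and -2.06 and -1.25 in labelled DKO. The single losses were level with or above WT and labelled DKO lay below every other array. Its departure was -5.73 (SE 0.65, adjusted p = 0.00150) and -4.01 at the second probe set. Gna12, a G protein alpha subunit, had 1.62, 1.15 and 0.17 in WT, 0.85, 0.94 and 0.59 in Ets1KO, 1.24, 1.29 and 1.31 in Ets2KO, and -2.72 and -2.59 in labelled DKO. Here the single losses lay within the range of WT, and the departure of -3.74 (SE 0.46, adjusted p = 0.00210) came with -3.90 at the second probe set. All 3 probe sets of the adhesion protein Cd99 were called, at -3.37, -4.04 and -4.86.

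Id2, an inhibitor of helix-loop-helix factors, had another pattern. It read 0.14, 0.71 and 0.69 in WT, 2.66, 1.85 and 1.39 in Ets1KO, 2.23, 1.59 and 1.60 in Ets2KO, and 0.52 and 0.40 in labelled DKO. Both single losses were above WT, while labelled DKO was within the WT range, and the departure was -2.80 (SE 0.49, adjusted p = 0.00747), with -2.59 at the second probe set. Other departures with agreeing probe sets were those of Acbd4 (-3.09), the deubiquitinase Otub1 (-2.79), the Polycomb protein Cbx6 (-2.61), the actin nucleator subunit Arpc4 (-2.58), the mTORC1 component Akt1s1 (-2.48) and the adaptor subunit Ap5s1 (-2.42). Their adjusted p-values lay between 0.000507 (Otub1) and 0.00221 (Arpc4), and all kept the call whichever array was left out.

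Genes read by 1 probe set cannot be checked this way. Anapc5, Apoe and Pla2g7, given here, are each read by a probe set whose name ends in _a_at. Such probe sets read several transcripts of a gene, and 15.5% of them were called below, against 8.8% of plain _at probe sets. Anapc5, a subunit of the complex that ends mitosis by tagging proteins for destruction, read 3.02, 2.81 and 2.15 in WT, 2.79, 2.68 and 2.64 in Ets1KO, 3.01, 3.05 and 2.51 in Ets2KO, and -1.42 and -1.44 in labelled DKO. Only labelled DKO differed, and the departure was -4.33 (SE 0.35, adjusted p = 0.000507). The lipoprotein Apoe read -0.24, -3.06 and -2.91 in WT, -3.63, -3.43 and -3.12 in Ets1KO, 1.93, 2.50 and 3.85 in Ets2KO, and -3.61 and -3.67 in labelled DKO. Its high level was thus in Ets2KO, and the departure was -5.07 (SE 1.09, adjusted p = 0.0167). The lipoprotein phospholipase Pla2g7 (-5.19, SE 1.16, adjusted p = 0.0187) was also highest in Ets2KO and was not called without labelled DKO replicate 1. The mean of the 5 measured adipocyte markers (9 listed) was also highest in an Ets2KO array. It was 0.59 to 3.08 in Ets2KO, -1.95 to 1.98 in WT, -2.89 to -2.59 in Ets1KO and -2.24 to 0.11 in labelled DKO. Within WT that mean was highest in replicate 3 (1.98), but Apoe (-0.24) and Pla2g7 (2.55) were highest in replicate 1. The part of fat cell markers in the result was not tested, and fewer cells of a type and less RNA per cell cannot be told apart.

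Cholesterol synthesis genes departed in both directions, 10 above 0 and 10 below, from -1.19 to 2.17. The 20 measured members (25 listed) had a median departure of 0.14, and their median differences from WT were -0.11 in Ets1KO, -1.04 in Ets2KO and -0.89 in labelled DKO. Squalene epoxidase Sqle was called above (2.17, SE 0.48, adjusted p = 0.0183) and the sterol-sensing factor Srebf2 below (-0.92, adjusted p = 0.0210). No other member was called, while 16.3% of all genes were. As deposited the list median was -0.68, with 0 called above and 3 below (166 and 3313 of all genes). After quantile normalization it was 0.17, with 1 called each way. All 11 members with several probe sets had departures of 1 sign across them. Sqle was not called as deposited (1.35, adjusted p = 0.0677) or without labelled DKO replicate 1.

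Stress and growth lists held called genes in both directions. Of 21 measured p53-induced genes (22 listed), 2 were called below (6.45% of all genes were) and 0 above, with a median of -0.68 (6 below and 0 above at unadjusted limma p below 0.05). The list mean was -0.34 in WT replicate 3 and 1.09 and 1.41 in the other WT arrays. Without WT replicate 3 the median was -0.13 with 4 called below, and without WT replicate 2 it was -1.16 with 4. They were Phlda3, an inhibitor of Akt (-4.04, SE 0.78, adjusted p = 0.0112), and the survival factor Bcl2l1 (-3.99, SE 0.59, adjusted p = 0.00411). Bcl2l1 has a single probe set, also of the _a_at type. It read 1.21, 0.36 and -0.52 in WT, 1.04, 0.70 and 0.56 in Ets1KO, 0.75, 1.07 and 0.27 in Ets2KO, and -3.05 and -2.72 in labelled DKO, which alone was low. Endoplasmic reticulum stress genes gave 3 above and 1 below of 22 (16.3% of all genes were called), with the kinase regulator Trib3 (2.69, adjusted p = 0.0123) and the stress factor Ddit3 (1.70, adjusted p = 0.0228) above and the chaperone partner Sdf2l1 (-1.60, adjusted p = 0.00450) below. Calls above in that list numbered 1 without Ets1KO replicate 2, Ets1KO replicate 3, Ets2KO replicate 1 or labelled DKO replicate 1, and 5 without Ets1KO replicate 1. Ddit3 gave 0.42 at its second probe set, was not called as deposited (0.88, adjusted p = 0.135), and lost the call without Ets1KO replicate 2, Ets1KO replicate 3, Ets2KO replicate 1 or labelled DKO replicate 1. Of 27 replication and cell cycle genes (29 listed), Anapc5 was the only member called, and the list median was 0.67. The list mean was -1.41 in Ets2KO replicate 3 and 2.15 and 2.02 in the other Ets2KO arrays; without that replicate 3 members were called below and the median was -0.53. Among 16 interferon-stimulated genes (25 listed) none was called, and the largest departure was that of Gbp2 (2.26, limma adjusted p = 0.301); at unadjusted p below 0.05, 2 lay above and 1 below.

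Endothelial identity genes (1 of 10 called) and ETS genes (2 of 14) were too few to tell their share from the 16.3% of all genes. A gene that was not called is not thereby shown to follow the sum. Of 10 measured endothelial genes (30 listed) the receptor Notch1 was called, at -1.22 (SE 0.28, adjusted p = 0.0209) and -0.59 at its second probe set, and not without labelled DKO replicate 1. Notch1 read 0.67, 0.34 and 0.45 in WT, -0.32, -0.70 and -0.52 in Ets1KO, 1.41, 1.14 and 1.78 in Ets2KO, and -0.87 and -0.68 in labelled DKO. It was highest in Ets2KO and lowest in Ets1KO and labelled DKO, which overlapped. The median of that list was -0.18, and its departures ran from -1.70 to 5.95, the highest not called. At unadjusted limma p below 0.05, 1 endothelial gene lay above and 2 below. Among 14 measured ETS genes (24 listed), Ets1 was called above and the repressor Erf below (-1.37, adjusted p = 0.00761), with a median of -0.13. At unadjusted limma p below 0.05, 2 ETS genes lay above and 2 below. In a fit to every probe set, 1 ETS gene had at least 2 probe sets called below and none above.

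Matrix genes gave 1 call above and 2 below of 30 measured (31 listed), with a median of 0.82. Of all genes, 9.84% were called above and 6.45% below. The collagen Col1a1 departed by 3.24 (SE 0.81, adjusted p = 0.0283), and 3.27 at its second probe set, with the adjusted p at 0.0537 after quantile normalization. The hyaluronan-binding Itih5 (-3.74, adjusted p = 0.0228), high in Ets2KO alone, and the basement membrane collagen Col18a1 (-2.16, adjusted p = 0.0283) lay below. Col1a1 also belongs to the fibroblast markers, where it was the only 1 of 10 called (11 listed). That list averaged 1.03 to 2.61 in labelled DKO and 0.17 to 1.53 in the other groups, and its part in the result was not tested. Each of these calls was lost in 4 or more of the 11 fits without 1 array.

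Translation, respiration and protein breakdown depended on the scaling. Of all 11015 genes, 9.84% were called above and 6.45% below. As deposited, 166 of all genes were called above and 3313 below, and after quantile normalization 685 and 773. Cytosolic ribosomal proteins gave 12 above and 0 below of 26 measured (39 listed), with a median of 0.50, but 0 above and 8 below as deposited (median -0.32) and 1 each after quantile normalization (median 0.03). Leaving out 1 array gave 3 (Ets1KO replicate 2) to 10 calls above, with 4 without Ets1KO replicate 3, Ets2KO replicate 1 or Ets2KO replicate 2, 5 without Ets1KO replicate 1, 6 without WT replicate 2 or labelled DKO replicate 1, and 7 without labelled DKO replicate 2. With inferred sex as a covariate limma called none. Rpl4, for example, departed by 0.76 here, by -0.061 as deposited and by 0.26 after quantile normalization. Rps6 (1.20, adjusted p = 0.0128) and Rpl14 (1.10, adjusted p = 0.0368) were above 0 under each scaling, but as deposited neither was called (0.37, adjusted p = 0.295, and 0.28, adjusted p = 0.530). Rpl14 also missed after quantile normalization (adjusted p = 0.0543) and kept its call in 3 of the 11 fits without 1 array. Oxidative phosphorylation subunits gave 3 above and 2 below of 38 (39 listed), among them Ndufv1 of complex I (-1.40, adjusted p = 0.00358), Uqcrc1 of complex III (-1.17, adjusted p = 0.0128) and Cox5b of complex IV (1.0, adjusted p = 0.0132). The other Ndufv1 probe sets gave 0.06 and -0.53 and were not called. Cox5b was not called as deposited (0.18, adjusted p = 0.540), where the list gave 0 above and 15 below. Quantile normalization gave 0 above and 3 below. Only 1 subunit was called above without WT replicate 1, Ets1KO replicate 1 or 3, Ets2KO replicate 1 or 2, or labelled DKO replicate 1. Proteasome subunits gave 5 above and 4 below of 30 (median 0.04), against 0 above and 17 below as deposited and 0 above and 7 below after quantile normalization. Calls above numbered 1 without Ets1KO replicate 2, Ets1KO replicate 3 or labelled DKO replicate 1, 2 without Ets2KO replicate 1 or 2, WT replicate 1 or 2, or Ets1KO replicate 1, and 3 without labelled DKO replicate 2. At their brightest probe sets, Psmd13 (-2.47), Psmd7 (-2.01) and Psmd3 (-1.56) of the proteasome's regulatory particle lay below under each scaling. The other Psmd13 probe sets gave -2.22, which was called, and 0.63, which was not. Psmd7 gave -0.70 at its second probe set, not called.

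Markers of other cell types were too few for their share of calls to be set against that of all genes (16.3%). None of 7 measured smooth muscle markers (10 listed) or 6 pericyte markers (8 listed) was called at its brightest probe set, with Acta2 at 4.02 (limma adjusted p = 0.0743) and Rgs5 at -6.35 (adjusted p = 0.0723). At unadjusted p below 0.05, 2 smooth muscle markers lay above and 1 pericyte marker below. Rgs5 had 4 probe sets, at -6.35, -4.67, -6.22 and -6.64, and in the fit to all probe sets 2 of them were called below (adjusted p = 0.0455 and 0.0444). Of 5 measured leukocyte markers (12 listed), 2 were called above (9.84% of all genes were), Cd3e (1.08, adjusted p = 0.00985) and Csf1r (0.93, adjusted p = 0.0116). The other Csf1r probe sets gave 0.33 and -0.09, not called, and with probe sets averaged Csf1r gave 0.39 (limma adjusted p = 0.324). Cd3e and Csf1r were below the array median in every array, and as deposited their departures were 0.25 and 0.10 and not called. Of the 5 adipocyte markers none was called by limma, with Adipoq at -2.91 (adjusted p = 0.526) and 1 marker below at unadjusted p below 0.05.

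Whether the several probe sets of a gene agree was asked over 4785 genes with more than 1. An Affymetrix probe set reads a stretch of a transcript, often near its 3′ end, so probe sets of 1 gene may read different ends or isoforms. In a fit to all 18824 probe sets with 1 symbol, 1850 were called above (9.83%) and 1789 below (9.50%). In 418 genes (8.74%) at least 2 probe sets were called the same way and none the other way, 220 above and 198 below, and in 301 of these no probe set had the opposite sign. Of the 220 above, 171 went opposite to the sum, as did 112 of the 198 below. In 129 genes (2.70%) probe sets were called both ways. Of 808 called genes with several probe sets, 506 (62.6%) had departures of 1 sign, against 52.1% of all such genes.

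Agreement was lower for every difference that involves labelled DKO. The intraclass correlation, the share of the variance of a quantity that lies between genes and not among the probe sets of a gene, was 0.38 for the departure, with an SD of 0.87 within a gene. It was 0.77 for Ets1KO minus WT and 0.73 for Ets2KO minus WT, but 0.29, 0.27 and 0.41 for labelled DKO minus WT, Ets1KO and Ets2KO. Between arrays of 1 group it was 0.67 to 0.85, and 0.72 between the labelled DKO arrays with an SD within a gene of 0.40. Probe sets of 1 gene lay beyond 1 in both directions in 133 genes for the departure, in 0 for Ets1KO and 2 for Ets2KO minus WT, and in 161 for labelled DKO minus WT. Where the brightest probe set departed by more than 1, in 1083 genes, 75.9% of 1769 other probe sets shared its sign, 39.7% were beyond 1 with it and 5.6% beyond 1 against it. For Ets2KO minus WT those shares were 96.3%, 61.0% and 0.4%.

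**Figure D4:**
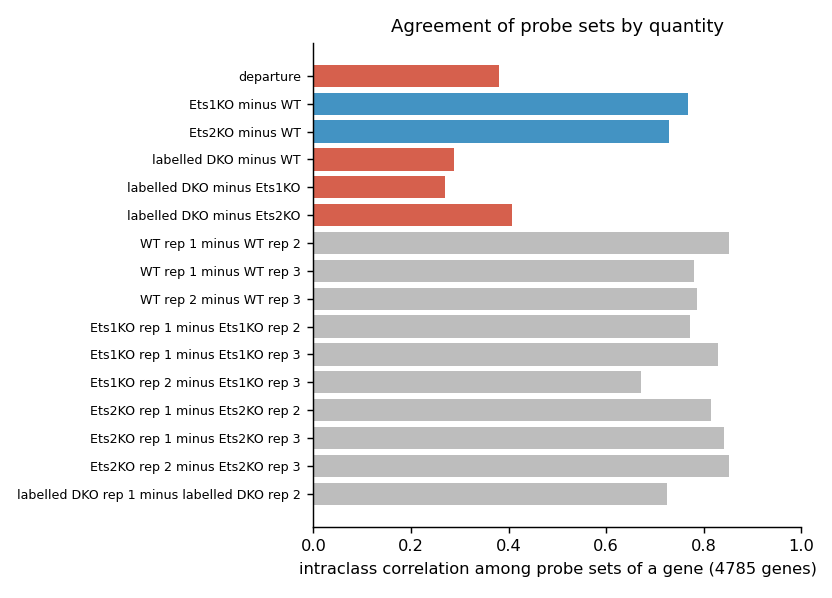
Intraclass correlation among the probe sets of a gene (x axis, 0 to 1, 4785 genes) for the departure and other differences that involve labelled DKO (red), for single-loss differences (blue) and for differences between arrays of 1 group (grey). The red bars, 0.27 to 0.41, are shorter than all others, which are 0.67 or more.

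The type and brightness of a probe set went with the direction of its call. Of probe sets whose name ends in _a_at, which read several transcripts of a gene, 8.73% were called above and 15.5% below. Plain _at probe sets gave 9.46% and 8.80%, _s_at sets, shared by related transcripts, 11.6% and 8.53%, and _x_at sets, which hold probes that may cross-hybridize, 14.5% and 3.81%. The brightest probe set of a gene with several was called above in 11.7% and below in 6.14%, and the others in 8.94% and 13.3%. In the 129 genes called both ways, the brightest was called above in 73 and below in 11. Among probe sets called below in those genes 25.5% were _a_at, against 6.75% of those called above. The share called above was alike by brightest probe set (9.84%) and over all probe sets (9.83%), while the share called below was 6.45% and 9.50%.

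The 5 called genes with the widest conflict show how far apart probe sets could lie. The 3 probe sets of Pfkp, the platelet-type phosphofructokinase of the glycolysis list, departed by 3.11, 1.45 and -4.22, each called. The brightest read 1.46, 1.27 and 0.92 in WT and 3.75 and 4.44 in labelled DKO. The conflicting 1 read 1.02, 0.79 and -0.17 in WT and -3.74 and -3.49 in labelled DKO. In Ets1KO they read 1.56, 1.62 and 1.25 against 1.03, 1.36 and 0.82, and in Ets2KO 0.52, 0.53 and 1.11 against 0.06, -0.06 and 0.23, so they were far apart in labelled DKO alone. Hk1, the constitutive hexokinase, behaved alike, with 1.59 and -3.20. Ywhag, a 14-3-3 adaptor protein, gave 1.22, 0.61 and -4.31, the desaturase Scd2 gave 1.65, -2.25 and -3.56, and the shedding protease Adam17 gave 1.64, 0.06 and -2.97. With probe sets averaged, Pfkp departed by 0.11 (adjusted p = 0.845), and Hk1 (-0.80), Ywhag (-0.83), Scd2 (-1.39) and Adam17 (-0.42) changed sign without being called. No direction is therefore given for these 5 genes.

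**Figure D5:**
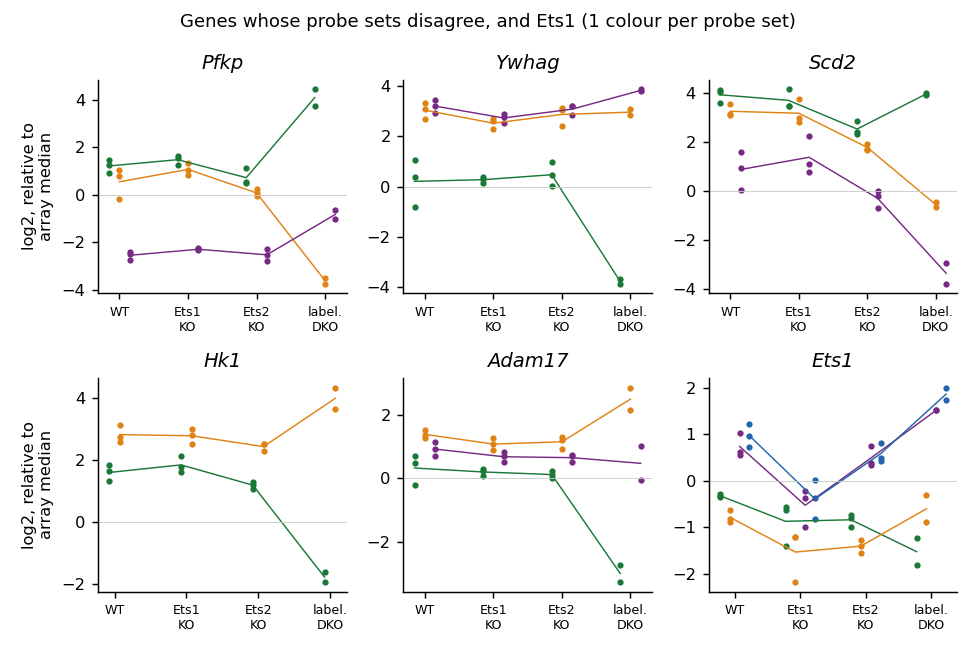
Log2 level relative to the array median (y axis) in each array of WT, Ets1KO, Ets2KO and labelled DKO (x axis, label. DKO), 1 colour for each probe set and lines through group means, for the 5 genes in conflict and Ets1. Probe sets run in parallel through the first 3 groups and split in labelled DKO; in Ets1, 3 of 4 are higher in labelled DKO than in Ets1KO and 1 is lower.

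Sex and single arrays limit the calls. With the inferred sex as a covariate, tried after the data were seen, 362 genes were called above and 326 below, 622 of them among the 1795. Among genes named by rule, Egln3, Hk2, Car9, Ptgs2, Nfkbiz, Maff, Tnfrsf9, Qsox1, Gna12, Id2, Anapc5 and Bcl2l1 stayed called, while Ndrg1, Dusp1, Pla2g7, Phlda3, Notch1, Sqle, Srebf2, Trib3, Ddit3, Itih5, Col1a1 and Col18a1, among others, did not. Only WT holds both inferred sexes, so that fit takes the sex difference from WT replicate 1 against the other WT arrays.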

How the data were processed

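The values are log2 expression for each Affymetrix mouse probe set, used as the authors deposited them and made with RMA per the submitters' processing notes. Version, centring and any filter on probe sets are not given in the sources used here. Each array's median was subtracted. Probe sets were named from the platform annotation: of 20523, 18824 carry 1 symbol, 549 several and 1150 none listed. Each of 11015 genes was tested at the probe set with the highest mean, and all 18824 were tested in a second fit.

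Models with 4 group means were fitted to 11 arrays in limma 3.58.1 (R 4.3.3; lmFit and eBayes, 7 residual and 2.13 prior degrees of freedom), with Benjamini-Hochberg adjustment and a threshold of 0.05. SE is limma's. The departure is the contrast given in the text. Tested on simulated data for 11015 genes, the departure fit recovered 23% of 100 genes changed by a log2 of 1 and 74% of 100 changed by 3, with 7 false calls. The simulation drew normal noise with the same spread in every group for a gene, and only those genes departed. No shift of scale in labelled DKO was simulated, so these rates may not hold for the real arrays. Promoters came from RefSeq (GRCm38.p6), with the first entry taken where a gene had several. Plots were made with matplotlib 3.10.9 under Python 3.11.15.

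The comparison, the gene lists and the tests were chosen with earlier results of these data known. Genes were named by rule among called genes: the 10 largest departures each way with at least 2 probe sets called the same way, none of opposite sign, and a highest group mean above the median of all genes; the 3 largest each way among genes with 1 probe set; the 5 with the widest conflict; Ets1 and Ets2; and, from each list, the called members with the largest departures (at most 3), or else its largest departure. Further members of the hypoxia, inflammatory and immediate-early lists, and genes whose Ets2KO minus WT and labelled DKO minus Ets1KO differences were called in opposite directions, were named after their values were seen. Alternatives were the deposited scale, quantile normalization, only genes above the median level, an intensity trend, array weights, all 12 arrays, a replicate block, the mean of probe sets, inferred sex as a covariate and leaving out each array. Probe sets without a single symbol were left out of the gene tests.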

Additional observations from a re-analysis of the deposited data

Results flagged for a closer look

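The difference between labelled DKO minus Ets1KO and Ets2KO minus WT was tested as an interaction, and 1084 genes differed above and 711 below the sum, as described. In 9 genes labelled DKO minus Ets1KO and Ets2KO minus WT were each called, in opposite directions, and their departures are given here as values. In 8 of them expression was lower in Ets2KO than in WT and higher in labelled DKO than in Ets1KO. These are Egln3 (6.22), Hk2 (5.46), P4ha2 (5.29), Nfkbiz (5.06), Maff (3.86), Pdk1 (3.18), the kinase Mapk6 (2.11) and the phosphodiesterase Pde10a (1.79). The 3 probe sets of Mapk6 differed in sign, from -0.24 to 3.68, and 1 was called in the fit to all probe sets. Blcap went the other way, 0.96 higher in Ets2KO than in WT and -0.77 in labelled DKO against Ets1KO, with a departure of -1.74. The opposite directions of 4 of them, Egln3, Hk2, P4ha2 and Pdk1, are those of the hypoxia and glycolysis list. Of 1699 probe sets with several symbols or none, which the gene tests do not use, 432 were called, 303 above the sum and 129 below. Groups held 2 or 3 arrays, so no array was tested as an outlier within its group.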

How the results depend on the processing

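As deposited, 166 genes were called above the sum, 3313 below and 1284 had 2 or more probe sets called the same way. Quantile normalization gave 685 above, restriction to genes above the median level 673 above and 429 below, and all 12 arrays 1906 above and 704 with 2 probe sets. Inferred sex as a covariate, chosen after the data were seen, gave 362, 326 and 174. Leaving out 1 array gave 550 to 1124 genes above, 458 to 733 below and 251 to 471 with 2 probe sets, with the fewest above without Ets1KO replicate 3 and below without Ets1KO replicate 2. Counts above fell by more than 1.5 times also without Ets1KO replicate 2 (553), Ets2KO replicate 1 (608), Ets2KO replicate 2 (598) or labelled DKO replicate 1 (661, with 471 below). Over those fits the intraclass correlation was 0.37 to 0.42 and the share of called genes of 1 sign 63.1% to 70.0%. Deviations of same-numbered arrays from their group means correlated at -0.32 to 0.10, over 0.1 in 1 of 15 pairs, against 10 of 30 pairs with other numbers. Within a group of 2 or 3 arrays the deviations cancel out, so these correlations are partly fixed in advance. They cannot settle whether array numbers pair the samples. A fit with the replicate block gave 620 genes above and 510 below, with 264 of the 418 genes of agreeing probe sets kept. Rpl4 reversed as deposited (-0.061), and with probe sets averaged Ywhag (-0.83), Scd2 (-1.39), Hk1 (-0.80) and Adam17 (-0.42) reversed. Over all settings, of the values for named genes and lists 1218 were unchanged, 125 weaker, 9 stronger and 5 reversed. For a gene, unchanged means the same direction and call, weaker a lost call and stronger a gained call. For a list, the number of members called above was compared, and unchanged means within 1.5 times. Except where stated, the cause was not tested.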
